A study of Mus musculus with 2 samples.

Results

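A set of 8 complement genes was followed in colonies that basal cells of the mouse mammary gland formed in the presence or absence of TNF-α. They were C3, C4b, C2, Cfb, C1ra, Serping1, Cd55 and Cd59a, taken by gene name from the table of counts, and all 8 were found among its 49492 genes. Basal cells (lin-, CD24+, CD29hi) had been sorted by FACS from mammary glands of wild-type adult female mice. They were kept in matrix gel in 3D for 10 days in DMEM/F12 medium with EGF and ITS, an insulin, transferrin and selenium supplement, which both groups received. The TNFa group was also given recombinant mouse TNF-α at 10 ng/mL, and the control group was not. Each group was 1 library, so no difference below has a replicate check, no test was run and no p-value is given. The sources used here do not say how many mice or wells went into a library.

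Complement is a cascade of plasma and tissue proteins that tags surfaces for uptake and can pierce membranes. The classical and lectin pathways start from bound recognition proteins and cleave C4 and C2, the alternative pathway uses factor B, and all of them converge on the cleavage of C3, after which the terminal proteins assemble a pore. Soluble inhibitors such as C1 inhibitor and membrane proteins such as CD55 and CD59 hold the cascade back on host cells, and epithelial cells are known to make several of these components themselves.

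The libraries held 44462275 counts (control) and 53487087 counts (TNFa), and edgeR's TMM method set the scaled size of the TNFa library at 1.20 times that of the control. Levels are given as deposited counts, as CPM, the count relative to the scaled library size, and, between genes, as CPM per kilobase of exon (RPKM). Ratios are log2 of TNFa to control CPM after adding a prior count of 2, and genes whose counts in the 2 libraries summed to under 10 were left out. Brackets after a ratio hold its 95% Clopper-Pearson interval, which covers counting error only. It covers neither differences between replicates nor reads that repeat the same molecule. For the sorted cell type, 9 basal markers were read. Krt5 had 109438 and 146872 counts and Krt14 had 229766 and 259922 counts in control and TNFa. Of the 9, none was more than 2-fold higher and 1 was lower, Oxtr with 10762 and 5630 counts (log2 ratio -1.19). Krt17 had the highest ratio of the 9 (0.31). The summed level of the 9 was 12474 CPM in control and 11711 CPM in TNFa. Luminal markers were also present in both libraries, at 4272 and 3537 CPM summed over 10 genes. By FACS, the paper found mostly luminal cells in control colonies grown from basal cells, and a larger basal share with TNF-α. The ratios below are therefore of whole colonies, not of basal cells alone.

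All 8 complement genes passed the filter, with 256 counts or more each over both libraries. In the TNFa library, 5 of them (C3, C1ra, Cfb, C2 and Serping1) were more than 2-fold higher, none was more than 2-fold lower, and C4b, Cd59a and Cd55 lay within 2-fold. Among all 20771 genes compared, 8.56% were more than 2-fold higher and 6.62% more than 2-fold lower. Among the 13609 genes with at least 200 counts these shares were 4.01% and 2.87%. The median log2 ratio of the 8 was 1.61, beside 0.0038 over all genes compared, whose 5th and 95th percentiles were -1.20 and 1.42. Together the 8 genes took 5443 counts in control and 62462 in TNFa, and C3 alone made up 31.9% of the first sum and 90.0% of the second. In bulk RNA, fewer cells of a type and less RNA per cell cannot be told apart.

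**Figure D1:**
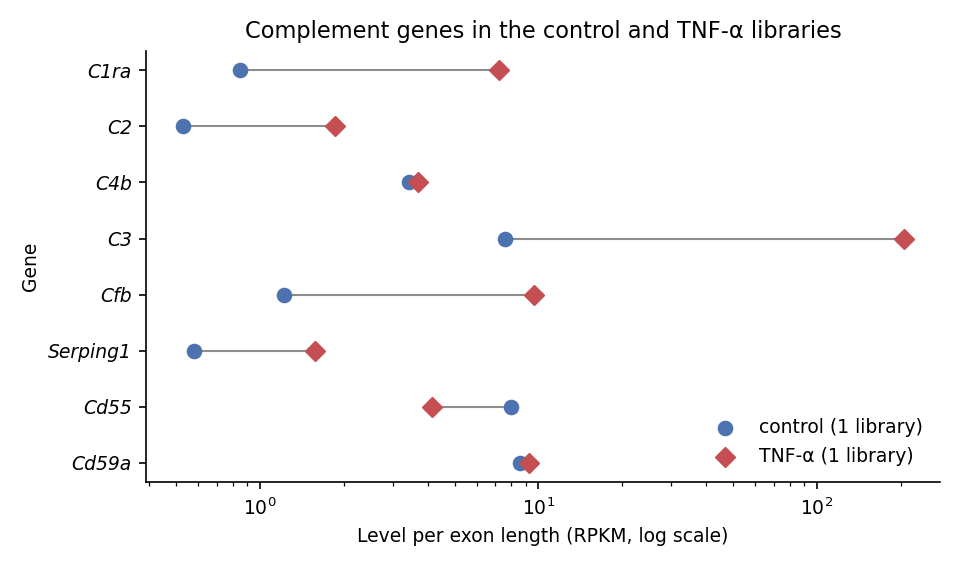
Level of each of the 8 complement genes in the control and TNFa libraries, in RPKM on a log axis, 1 point per library with no replicates. C3 went from 7.58 to 205 RPKM, while Cd55 is the only gene of the 8 whose TNFa point lies below its control point.

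C3 encodes the central component, whose cleavage product binds covalently to surfaces. It had 1737 counts in control and 56204 in TNFa, which is 39.0 and 1053 CPM. The TNFa level was 27.0 times that of the control [25.8 to 28.4], a log2 ratio of 4.75 [4.69 to 4.83]. By ratio it ranked 20 among the 20771 genes compared. By RPKM it went from rank 5845 to rank 236, and its share of all counts from 0.00391% to 0.105%. C3 lies on chromosome 17 at 57203970 to 57228136, minus strand, in GRCm38. The microRNA gene Mir6978, annotated in an intron of C3 and sharing none of its exon bases, had 1 count in control and 63 in TNFa. It is 57 bases long and how reads were assigned is not stated, so these counts are no separate check of C3.

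Cfb encodes factor B, which supplies the protease of the alternative pathway C3 convertase. Its counts were 153 in control and 1447 in TNFa, or 3.43 and 27.1 CPM. The log2 ratio was 2.97 [2.74 to 3.23], a level 7.90 times that of the control. The gene lies at 34856374 to 34862518 on the minus strand of chromosome 17, next to C2. C3 exceeded Cfb 6.24-fold by RPKM in control and 21.3-fold in TNFa. The other listed genes of this arm gave no higher level in TNFa: Cfp, which encodes the convertase stabiliser properdin, had 79 and 76 counts (-0.31), and Cfd, which encodes the protease that cleaves factor B, had 3 counts in control and 0 in TNFa, at or under the floor of 3 counts.

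C1ra encodes the protease C1r, which in the C1 complex is activated first and then cleaves C1s. It had 113 counts in control and 1144 in TNFa, or 2.54 and 21.4 CPM. Its log2 ratio of 3.06 [2.80 to 3.37] was the second highest of the 8, close to that of Cfb, and the intervals of the 2 genes overlap. The gene lies on chromosome 6 at 124512405 to 124523443, plus strand. C1ra has a near copy, C1rb, and 48.0% of the 50-base windows of C1ra transcripts also occur in those of C1rb. How such reads were assigned is not stated in the sources used here, so the split between them is uncertain. C1rb had 23 and 143 counts, a log2 ratio of 2.29 [1.73 to 3.08], in the same direction as C1ra.

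C2 encodes the protease subunit of the classical and lectin C3 convertase and is the counterpart of factor B. Its counts were 91 in control and 383 in TNFa, or 2.04 and 7.18 CPM. The log2 ratio was 1.79 [1.48 to 2.16], a level 3.51 times that of the control, and its interval lay wholly under that of Cfb. Taking out reads that the overlapping gene Zbtb12 may have given to C2 moved this ratio to 3.13, above that of Cfb. C2 lies at 34862604 to 34898265 on the minus strand of chromosome 17. C4b, which encodes the C4 protein whose cleaved form pairs with C2 in that convertase, differed from its partner. It had 873 counts in control and 1124 in TNFa, or 19.6 and 21.1 CPM, a log2 ratio of 0.10 [-0.02 to 0.23] that placed it at the 59.5th percentile of all genes compared. C4b lies at 34728380 to 34743882 on the same strand. Its near copy C4a had 34 and 40 counts (-0.02), and 34.6% of the 50-base windows of C4b transcripts also occur in C4a, whose reads are therefore uncertain too.

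Serping1 encodes C1 inhibitor, the serpin that inactivates C1r, C1s and the MASP proteases. It had 60 counts in control and 196 in TNFa, or 1.35 and 3.67 CPM, the fewest counts of the 8 genes. The log2 ratio was 1.42 [1.02 to 1.89], a level 2.73 times that of the control, and the lower bound lies just past 2-fold. The gene lies on chromosome 2 at 84765387 to 84775444, minus strand. The intervals of C1ra and Serping1 do not overlap, and the ratio of C1ra to Serping1 by RPKM was 1.47 in control and 4.55 in TNFa.

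Cd55 encodes decay-accelerating factor, a membrane protein that dissociates C3 convertases. It had 1725 counts in control and 1071 in TNFa, or 38.7 and 20.1 CPM. Its log2 ratio was -0.95 [-1.06 to -0.84], so the TNFa level was 0.519 of the control level and stayed just short of 2-fold. Of the genes compared, 7.13% had a lower ratio. The gene lies on chromosome 1 at 130439027 to 130462744, minus strand. Its copy Cd55b had 0 counts in control and 1 in TNFa, and 8.0% of the 50-base windows of Cd55 transcripts occur in Cd55b.

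Cd59a encodes CD59, a membrane protein that blocks assembly of the terminal pore. It had 691 counts in control and 893 in TNFa, or 15.5 and 16.7 CPM, a log2 ratio of 0.11 [-0.04 to 0.26]. The gene lies on chromosome 2 at 104095801 to 104115354, plus strand. Its copy Cd59b had 6 and 29 counts, a log2 ratio of 1.74 [0.72 to 3.57]. Cd59a nevertheless exceeded Cd59b 82.7-fold by RPKM in control and 22.1-fold in TNFa, and 3.87% of the windows of Cd59a occur in Cd59b.

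Compared per exon length, the order of the 8 genes differed between the libraries. In control the order by RPKM was Cd59a (8.56), Cd55 (7.98), C3 (7.58), C4b (3.44), Cfb (1.22), C1ra (0.851), Serping1 (0.579) and C2 (0.527). In TNFa it was C3 (205), Cfb (9.60), Cd59a (9.24), C1ra (7.19), Cd55 (4.14), C4b (3.70), C2 (1.85) and Serping1 (1.58). With 1 library each there is no spread against which neighbours in these orders could be told apart. C3 and the 2 membrane regulators lay close together in control, where C3 was 0.885 of Cd59a. In TNFa, C3 was 22.2 times Cd59a and 49.5 times Cd55.

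**Figure D2:**
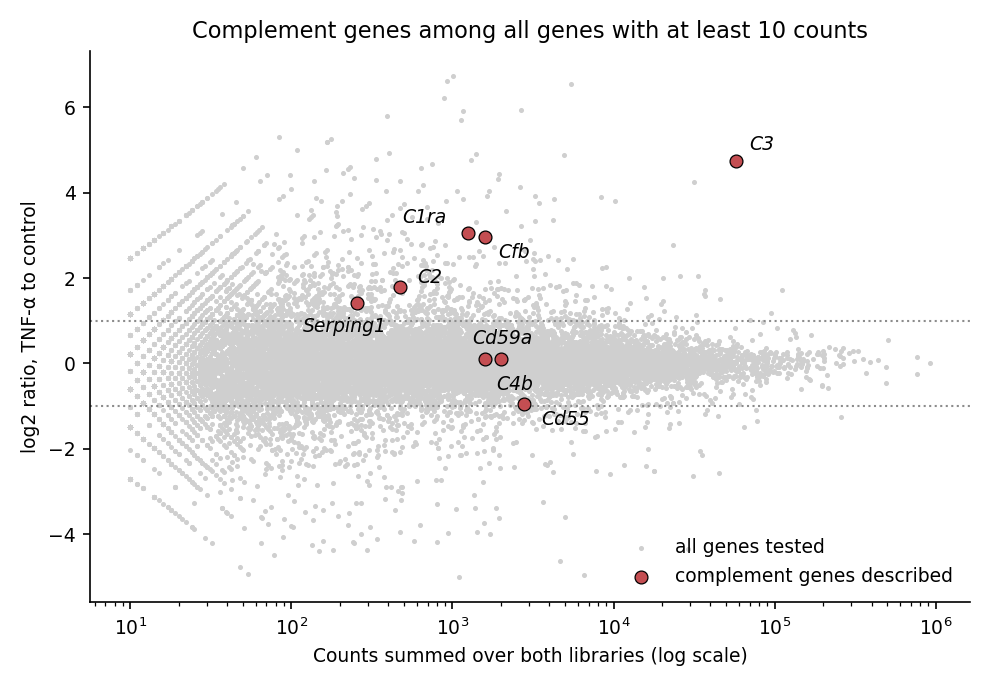
Log2 ratio of TNFa to control against the counts summed over both libraries (log axis) for all 20771 genes compared, with the 8 complement genes in red and dotted lines at 2-fold. C3 lies at 4.75, and C4b and Cd59a sit in the middle of the cloud.

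The promoters of 4 of the 8 genes were at hand in RefSeq (GRCm38.p6), as windows from 250 bases before to 50 bases after the start. These 4 are shown because no others were at hand. They cover C3 and C1ra, the 2 highest of the 8 by the ratios above, and the 2 membrane regulators that did not pass 2-fold. C4b, C2, Cfb and Serping1 had no window. Both strands were searched for motifs of factors that act downstream of inflammatory cytokines. The NF-κB site was searched as 1 fixed 10-base pattern, so forms of the site that differ from it were not seen. The interferon-stimulated response element was GAAA, any 2 bases and GAAA, the interferon gamma activated site TTCNNNGAA, and the C/EBP site TTNNGCAA. Capitals mark every match, and the sequences run 5′ to 3′ on the strand of the gene. The windows are chr17:57228087-57228386 (minus strand) for C3, chr6:124512371-124512670 (plus strand) for C1ra, chr1:130462695-130462994 (minus strand) for Cd55 and chr2:104095551-104095850 (plus strand) for Cd59a.
C3: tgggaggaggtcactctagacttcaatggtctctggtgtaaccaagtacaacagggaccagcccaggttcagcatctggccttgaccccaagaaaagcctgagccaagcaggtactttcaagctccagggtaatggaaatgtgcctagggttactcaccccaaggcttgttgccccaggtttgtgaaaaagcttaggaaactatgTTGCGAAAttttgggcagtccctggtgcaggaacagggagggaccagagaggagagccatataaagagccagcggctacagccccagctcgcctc
C1ra: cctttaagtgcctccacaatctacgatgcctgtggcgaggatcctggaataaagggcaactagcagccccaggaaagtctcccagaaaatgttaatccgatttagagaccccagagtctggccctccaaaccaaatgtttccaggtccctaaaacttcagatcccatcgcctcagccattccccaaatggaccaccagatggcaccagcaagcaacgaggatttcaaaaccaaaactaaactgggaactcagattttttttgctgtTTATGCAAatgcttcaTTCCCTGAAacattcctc
Cd55: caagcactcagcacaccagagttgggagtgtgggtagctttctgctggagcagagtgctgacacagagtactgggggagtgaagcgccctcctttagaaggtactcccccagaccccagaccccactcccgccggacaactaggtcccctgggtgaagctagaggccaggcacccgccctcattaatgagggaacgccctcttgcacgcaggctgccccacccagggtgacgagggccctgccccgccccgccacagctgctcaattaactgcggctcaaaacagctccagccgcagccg
Cd59a: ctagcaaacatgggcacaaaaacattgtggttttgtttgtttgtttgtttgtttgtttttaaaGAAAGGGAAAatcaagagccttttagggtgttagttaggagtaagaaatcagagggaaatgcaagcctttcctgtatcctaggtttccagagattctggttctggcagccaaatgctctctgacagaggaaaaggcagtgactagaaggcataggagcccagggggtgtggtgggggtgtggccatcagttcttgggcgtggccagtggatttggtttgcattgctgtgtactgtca
The C3 window held 1 C/EBP match on the opposite strand, 45 to 38 bases before the start. C1ra held a C/EBP match 16 to 23 bases after the start and an interferon gamma activated site that reads as a match on both strands 32 to 40 bases after it. Cd59a held 1 response element, 187 to 178 bases before the start, and Cd55 held no match. None of the 4 windows matched the NF-κB pattern used. Of all 32817 windows, 10.8% held the C/EBP letters, 8.29% the activated site, 3.43% the response element and 4.41% the NF-κB pattern used. The RefSeq start of C1ra lies 216 bases inside the deposited start of the gene. A match is a run of letters and no evidence of binding.

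The other genes of the cascade were taken from a list of 61 names sorted by role, of which 59 were in the table. Besides the 8, 51 genes were in the table, 29 passed the filter, 7 were more than 2-fold higher (24.1%), 5 more than 2-fold lower (17.2%) and 17 lay within 2-fold. Among all genes compared 8.56% were more than 2-fold higher and 6.62% more than 2-fold lower. With at least 200 counts these shares were 4.01% and 2.87%. The median log2 ratio of the 29 was -0.20, and 11 of them were above 0. Counting the 8 genes with them, the classical pathway had 6 of 9 tested genes more than 2-fold higher and 1 lower. Among these 6 are C1rb and C1s2, near copies of C1ra and C1s1 that may share their reads. The terminal pathway had 0 higher and 1 lower of 4, and the receptors 0 higher and 1 lower of 5.

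**Figure D3:**
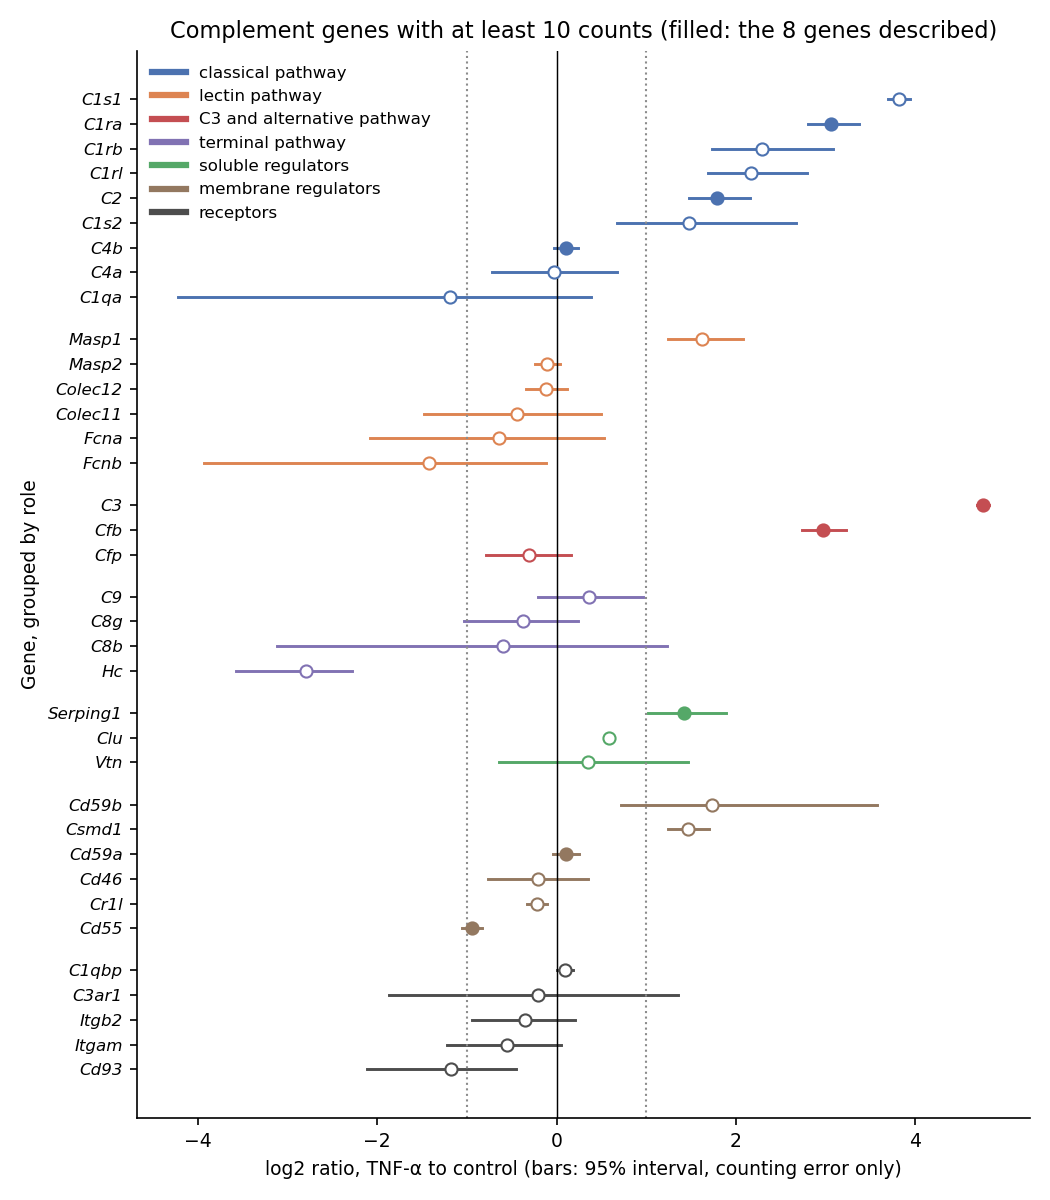
Log2 ratio of TNFa to control for 36 of the 37 complement genes that passed the filter, grouped by role, with filled points for the 8 genes and bars for the 95% counting interval. The 12 points right of the dotted line at 1 are 6 classical pathway genes with C3, Cfb, Masp1, Serping1, Cd59b and Csmd1, and Hc lies farthest left.

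Among the classical proteases, C1s1, which encodes C1s, the protease that C1r activates, had 573 counts in control and 9691 in TNFa, a log2 ratio of 3.82 [3.70 to 3.94]. At 58.0 RPKM in TNFa it was 8.07 times C1ra and 36.7 times Serping1, against 4.83 and 7.10 times in control. C1rl, which encodes a C1r-like protease, had 34 and 190 counts (2.16 [1.69 to 2.79]), and C1s2 had 12 and 44 (1.48 [0.67 to 2.67]). C1s2 is a near copy of C1s1, and 21.8% of the 50-base windows of C1s1 transcripts also occur in those of C1s2. The split of reads between them is therefore uncertain. The genes of the recognition protein C1q were close to the floor in both libraries. C1qa had 8 and 3 counts, C1qb 2 and 0, and C1qc 0 and 0. The ratio of C1qa, -1.18 [-4.22 to 0.38], counts among the 5 lower genes although its interval spans 0. In the lectin pathway Masp1, which encodes a MASP protease, had 63 and 237 counts (1.62 [1.24 to 2.08]). Masp2 had 804 and 895 (-0.10) and the collectin gene Colec12 had 300 and 332 (-0.11). Fcnb, a ficolin gene, was lower with 12 and 4 counts (-1.42 [-3.93 to -0.12]).

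None of the tested terminal pathway genes was more than 2-fold higher, and Serping1 was the only tested soluble regulator that was. Hc, which encodes C5, had 156 counts in control and 25 in TNFa, a log2 ratio of -2.80 [-3.57 to -2.29]. C9, which polymerises into the pore, had 42 and 65 counts (0.36), whereas C6 had 2 and 2, C7 had 0 and 0, and C8a had 2 and 0. Cfi, which encodes the protease that cleaves surface-bound C3 fragments, had 0 and 6 counts. Clu, which encodes clusterin, an inhibitor of the terminal complex, was the most abundant listed gene in control at 65.8 RPKM and stood at 98.4 RPKM in TNFa (0.58 [0.55 to 0.62]).

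Of the other membrane regulators, Cr1l encodes Crry, the rodent inhibitor of C3 convertases, and had 1300 and 1341 counts (-0.21 [-0.33 to -0.10]). C3 was 2.69 times Cr1l by RPKM in control and 84.3 times in TNFa. Cd46 had 56 and 58 counts (-0.20) and Csmd1, which encodes a large transmembrane protein with complement control repeats, had 205 and 681 (1.46 [1.24 to 1.70]). Several receptor genes had few counts: C3ar1, the receptor for the small fragment of C3, had 8 and 8 counts, C5ar1 had 0 and 0, and Cr2 had 3 and 2. Itgam and Itgb2, the chains of complement receptor 3, had 50 and 40 counts (-0.56) and 56 and 52 counts (-0.35). Cd93 was lower with 40 and 20 counts (-1.17 [-2.11 to -0.45]), and C1qbp, which encodes a mitochondrial protein also known to bind C1q, had 1795 and 2299 (0.10).

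C4b, C4a, Cfb and C2 lie in the same 169.9 kb of chromosome 17, and the genes between them show whether the whole interval differed. From C4b to C2 there were 18 genes, of which 13 were compared and 5 were more than 2-fold higher, against 8.56% of all genes compared. Besides Cfb and C2 the 5 were Gm20547, Mir6972 and Cyp21a1, a steroid hydroxylase gene with 5 and 28 counts (1.89). Stk19 (-0.17), Dxo (0.05), Skiv2l (-0.19) and Nelfe (0.38), which lie between C4b and Cfb, stayed within 2-fold, as did Ehmt2 (-0.18) next to C2. Mir6970 had 16 and 8 counts (-1.07). Zbtb12, a zinc finger gene within the span of C2, was higher by less than 2-fold (0.59 [0.47 to 0.72]).

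Overlapping annotation touches these values. Gm20547 spans Cfb and C2 on the same strand and all of its 3902 exon bases lie in their exons. Of these, 2246 lie in Cfb, which is 79.5% of the exon bases of Cfb, and 1656 in C2, 42.8% of those of C2. Gm20547 had 202 counts in control and 1614 in TNFa (2.73), so reads on the shared exons were either counted for several of these genes or divided among them, and Cfb, C2 and Gm20547 are not independent values. Summed, the 3 genes gave 446 and 3444 counts and a log2 ratio of 2.68 [2.55 to 2.83]. Zbtb12, on the opposite strand, shares 161 exon bases with C2 and had 850 and 1537 counts. If its reads were spread evenly over its exons and none were told apart by strand, 67.7 of the control counts and 123 of the TNFa counts of C2 would be its own, and the log2 ratio of C2 would be 3.13. Mir6972 in an intron of Cfb had 0 counts in control and 13 in TNFa. Gm16083 shares 102 exon bases with Cd55 on the opposite strand and had 17 and 29 counts.

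A second cluster, picked after its values were seen, lies on chromosome 6. From C1rl to C1s2, over 143.0 kb, 7 genes were annotated and 6 compared. All 6 were more than 2-fold higher: C1rl, C1ra, C1s1, C1rb, C1s2 and the antisense gene Gm16567. C1s2 shares sequence with C1s1, and C1rb with C1ra, so these are not 6 independent values. The exon bases of Gm16567 all lie in C1s1 exons on the opposite strand, and it had 198 and 3257 counts (3.77), and without a stated strand setting its reads and those of C1s1 cannot be told apart. The nearest genes outside, Clstn3 with 33 and 54 counts (0.43) and Lpcat3 with 620 and 671 (-0.15), lay within 2-fold.

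**Figure D4:**
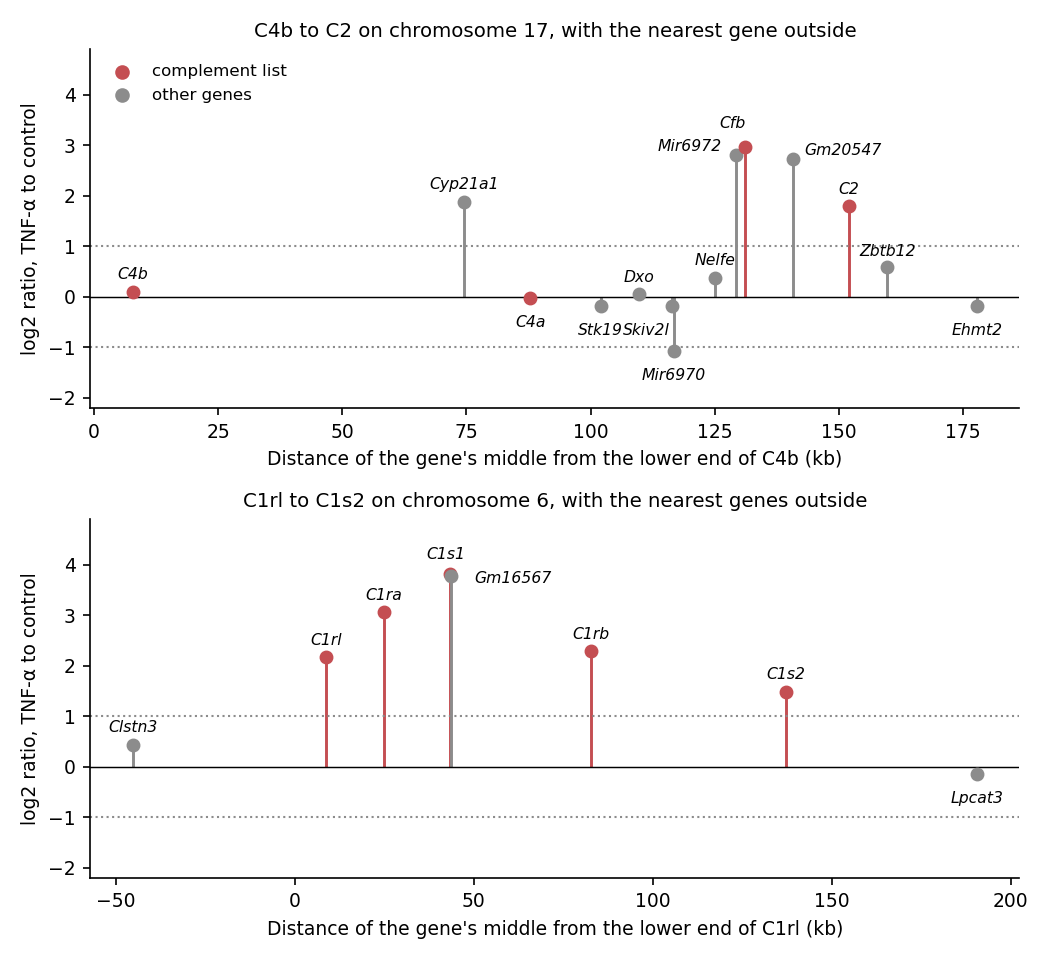
Log2 ratio of TNFa to control for the tested genes from C4b to C2 and from C1rl to C1s2, placed by the distance of the gene's middle (kb), with dotted lines at 2-fold. On chromosome 17 only Cfb, C2, Gm20547, Mir6972 and Cyp21a1 pass the upper line, while on chromosome 6 all 6 genes inside do. Mir6972 had 0 counts in control, so the height of its bar depends on the prior count.

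Genes of transcription factors that are known to act on complement promoters were also read. Of 8 tested, 3 were more than 2-fold higher and none was lower. The higher ones include Irf1 (718 and 2923 counts, 1.76) and Relb (585 and 1937, 1.46). Among all genes compared 8.56% were more than 2-fold higher, and 4.01% among those with at least 200 counts. Nfkb1 (0.08), Cebpb (0.04) and Cebpd (0.26) stayed within 2-fold. Stat3 had 13950 and 24469 counts (0.55) and Rela, the lowest of the list at -0.10, had 2877 and 3204. RNA levels do not measure the amount or activity of the factor proteins, which was not tested.

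Complement is also made by macrophages and fibroblasts, so markers of other cells stand beside these values. Leukocytes had been removed at the sort by CD45, and of 11 macrophage and leukocyte markers 7 passed the filter. Their summed level over the list was 14.0 CPM in control and 20.5 CPM in TNFa, of which Cd14, the only one more than 2-fold higher (276 and 756 counts), made up 6.19 and 14.2 CPM. Adgre1, which encodes F4/80, had 0 and 2 counts, Fcgr1 0 and 4, and Ptprc, which encodes CD45, 26 and 38. Fibroblast markers were present in both libraries at 547 and 550 CPM summed over 9 genes, of which Fbln1 (1.52) and Dcn (184 and 582 counts) were more than 2-fold higher and Pdgfrb was the lowest (-0.93). Of 10 luminal markers 1 was higher, Csn3 (1.88), and 3 were lower, Pgr (-1.54), Esr1 (-1.48) and Prlr (-1.15), with a median of -0.73. The 5 endothelial markers summed to 7.07 and 6.75 CPM, and none of the 4 that were tested passed 2-fold. The 4 adipocyte markers summed to 7.52 and 2.92 CPM and 2 of them were tested, with Lep lower at 127 and 10 counts (-3.66) and Plin1 at 0 in both libraries. The part of other cell types in the complement values was not tested.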

How the data were processed

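The authors deposited raw read counts per gene with exon coordinates, strand and summed exon length, without normalization, on GRCm38 (mm10) per the labels. The aligner, counting tool, annotation and strand setting are not given in the sources used here, and the labels and the paper name different RNA kits. All 8 genes had the GENCODE M21 coordinates. From the counts, TMM factors (edgeR 4.0.16, R 4.3.3), CPM, RPKM and log2 ratios (prior count 2) were computed for genes with at least 10 counts, with Clopper-Pearson intervals (scipy 1.17.1, Python 3.11.15). With 1 library per group no model was fitted, and a gene past 2-fold was counted. The calculation was tested on simulated data. Named genes were the 8, their near copies, listed complement genes with at least 100 counts or past 2-fold, genes between C4b and C2, and the extremes of marker and factor lists. Some other members of these lists were also named. The C1 cluster and genes under these limits were added after values were seen. The genes and lists were chosen with earlier results of these data known. Transcripts were compared in place of proteins. Alternatives were total counts, DESeq2 1.42.0 size factors, upper quartile scaling, other filters, prior counts and folds, and halved counts. Values of 1 listed complement gene and 1 listed factor gene are not reported here, though counts over the lists include them.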

Additional observations from a re-analysis of the deposited data

How the results depend on the processing

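No paired analysis was possible because each group was 1 library and no result comes from a test; for the same reason no replicate could be left out. Under each other scaling, filter and prior count, and with counts halved, 5 of the 8 genes stayed more than 2-fold higher. The median log2 ratio of the 8 ranged from 1.57 to 1.62, and C3 from 4.75 to 4.76. The scaled TNFa library was 1.20 times the control in every scaling. Filters leave a gene's ratio as it is, and halving divided the counts of both libraries. These alternatives are therefore no check on the sampling of reads. At a fold of 1.5, 1 gene, Cd55, counted as lower instead of 0. The number of all genes higher and lower, 1777 and 1375 in the main setting, was 2679 and 2996 with no filter beyond 1 count, 836 and 658 with at least 1 CPM in a library, and 3210 and 2846 at a fold of 1.5. Of the wider complement list, 5 genes were lower in the main setting, 10 with no filter, 2 with at least 1 CPM, 3 with counts halved and 8 at a fold of 1.5. In alternatives chosen after seeing the data, Cfb and C2 each became 2.68 when summed with Gm20547, where shared reads may count more than once, and C2 became 3.13 without reads assigned to Zbtb12. Depth limits the genes at or under 3 counts, which is 0.0673 CPM in control and 0.0562 CPM in TNFa, and a low level there is not an absence.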

Other observations

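Genes related to complement by family, chosen after their values were seen, were read in the same way. Of 12 C1q-like genes, 9 were tested and 2 were more than 2-fold higher, C1qtnf1 (116 and 598 counts in control and TNFa, log2 ratio 2.09 [1.82 to 2.41]) and C1qtnf7 (20 and 61, 1.27). C1qtnf2 (16 and 8, -1.07) and C1qtnf5 (40 and 16, -1.46) were lower. Over all genes compared, 8.56% were more than 2-fold higher and 6.62% more than 2-fold lower. Of genes for proteins with the thioester fold of C3, A2m had 12 and 34 counts (1.13), Cd109 had 1158 and 1237 (-0.16) and Pzp had 60 and 47 (-0.59). Ptx3, which encodes a soluble pentraxin known to bind C1q, had 3331 and 3656 counts (-0.12), and Susd2, which encodes a membrane protein with a sushi domain, had 498 and 852 (0.51).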
